A study of Homo sapiens with 4 samples.

Results

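The kinesin motor genes were chosen as the protein-coding genes whose symbol starts with KIF and a digit or with KIFC and a digit, leaving out KIFBP, which encodes a kinesin binding protein, and symbols with a hyphen. The rule found 42 genes among the 51740 rows of the deposited table, and it used no measured value. They were sorted by their known roles into 14 mitotic kinesins, 15 transport kinesins and 13 others. KIF2B, whose single exon lies wholly inside another gene in GENCODE 44, had no count in any library and was not tested, which left 41 of the 15336 tested protein-coding genes.

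Kinesins are motor proteins that use ATP to walk along microtubules or to take their ends apart. Mitotic kinesins slide spindle microtubules, move and align chromosomes, build the central spindle and help the dividing cells to separate, and many of their genes are transcribed as cells approach mitosis. Transport kinesins carry vesicles, mitochondria, endosomes and RNA, mostly outward along microtubules. HEK293T cells are a cycling human embryonic kidney line with the SV40 large T antigen, so genes of both classes can be followed in the same RNA.

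To ask in which compartment transcripts reside, formaldehyde-crosslinked wildtype HEK293T cells were lysed in steps to give a nuclear and a cytoplasmic fraction, and RNA from both was sequenced in 2 biological replicates. Libraries were made from 400 ng of RNA after ribosomal RNA depletion. A value is therefore relative to the other RNA of its fraction and does not give an amount per cell. Reads over exons and introns were counted together, so that unspliced RNA counts toward a gene. No agent other than formaldehyde was used, both fractions carried the same genotype, and the cells are a single transformed line.

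The table gives a mean over 4 libraries, a fold change and its standard error. The whole-number counts behind them were recovered for 99.1% of the tested genes and for each of the 42 kinesins, and summed to between 13865925 and 21977265 per library over genes with a mean of up to 20000. The table does not say which replicate a count belongs to, so the libraries are called the deeper and the shallower library of a fraction. Values below are normalized counts, the counts divided by the DESeq2 size factor of the library, and the log2 fold change is cytoplasmic over nuclear, so that a positive value means higher in the cytoplasmic fraction. The nuclear RNAs MALAT1 and NEAT1 had log2 fold changes of −3.47 and −3.09, and 82 of 83 tested ribosomal protein genes were called higher in the cytoplasmic fraction, with a median of 3.52. A normalized count is not a gene's share of the fraction's total. Scaling the fractions to equal totals, which compares such shares, lowered every log2 fold change by 0.66. Calls that change under this scale are given beside the deposited ones.

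Kinesin transcripts were found in both fractions and did not share a direction. At a DESeq2 adjusted p of at most 0.01, 10 kinesins were higher in the cytoplasmic fraction (24.4% of 41) and 17 were higher in the nuclear fraction (41.5%), and 14 did not pass the test. Among all tested protein-coding genes, 35.6% were called cytoplasmic and 28.4% nuclear. The median log2 fold change of the kinesins was −0.32, against 0.11 for all tested protein-coding genes, and single genes ran from −2.51 for KIF16B to 1.96 for KIF1C. The kinesin genes were also longer, with a median span of 56.2 kb against 34.9 kb, and are set against genes of like span below. With equal totals, 6 kinesins were called cytoplasmic and 25 nuclear, where 22.4% and 42.6% of all tested protein-coding genes were. Both cytoplasmic libraries lay above both nuclear libraries for 13 kinesins and below them for 24, shares set against 46.6% and 42.3% of protein-coding genes, and the fractions overlapped for KIF11, KIF4B, KIF1B and KIF17. By limma-voom on the recovered counts, 11 kinesins were called cytoplasmic and 17 nuclear, where 42.6% and 35.9% of protein-coding genes were.

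**Figure D1:**
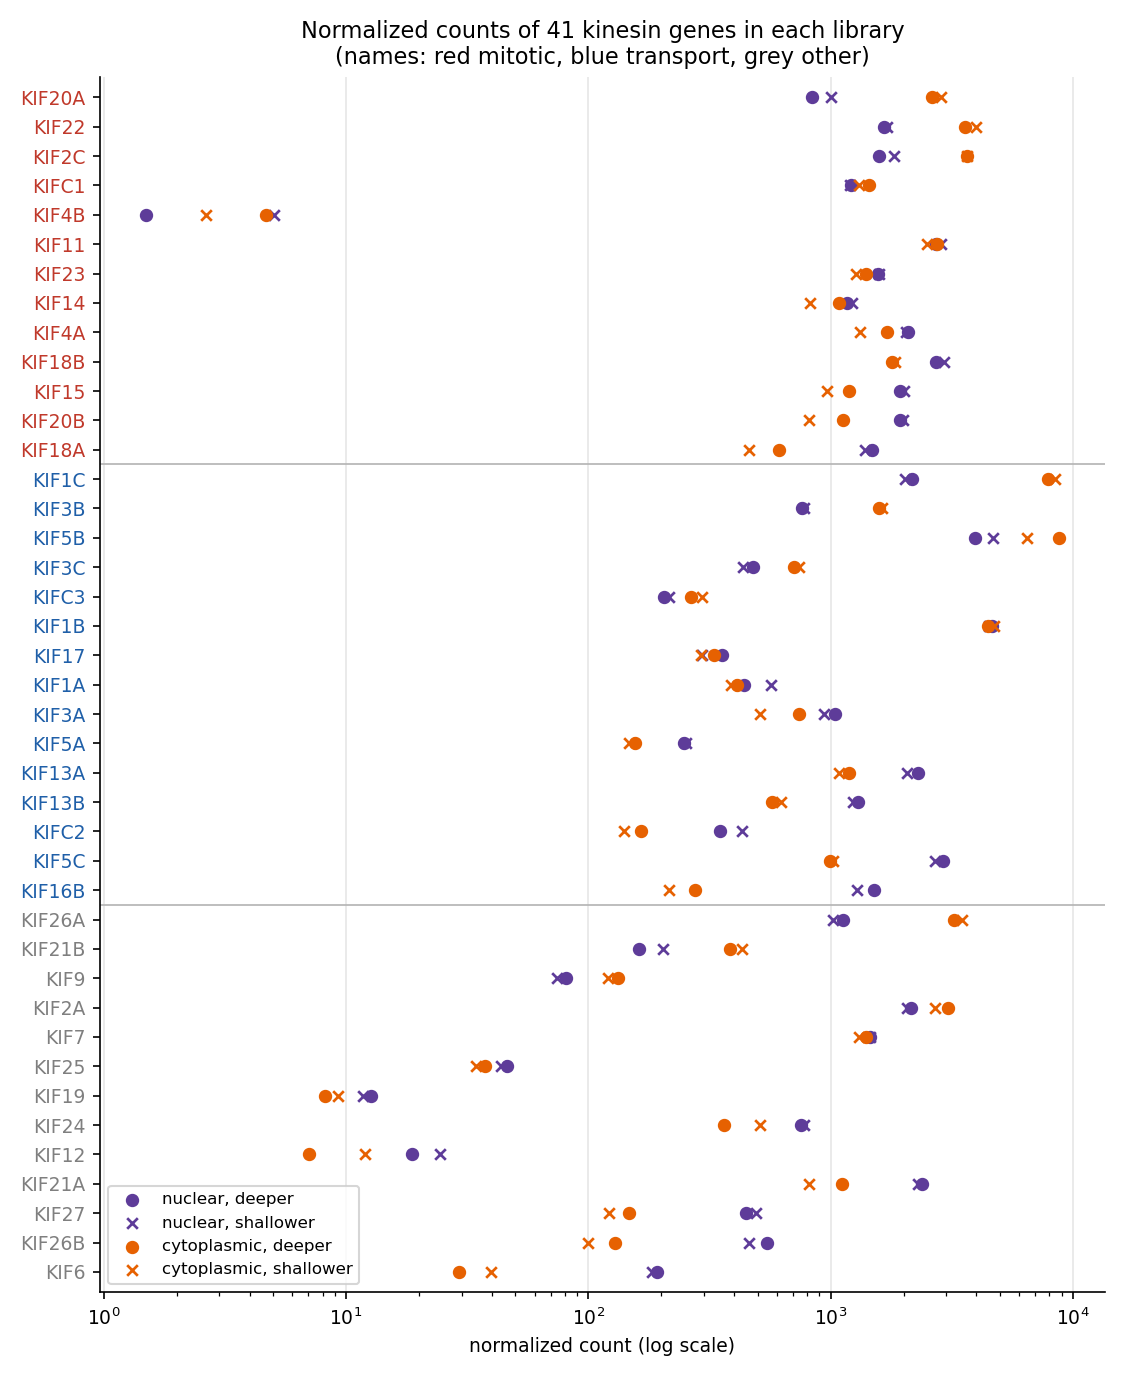
Normalized counts (x axis, log scale) of the 41 kinesins with counts, 1 row per gene and 1 point per library, ordered by fold change within the mitotic (red names), transport (blue) and other (grey) classes. Nuclear libraries are purple and cytoplasmic libraries orange. The cytoplasmic points lie clearly to the right for KIF1C, KIF20A and KIF26A and clearly to the left for KIF16B, KIF6 and KIF26B, and KIF11 and KIF1B hardly separate.

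Of the 13 mitotic kinesins tested, 3 were called cytoplasmic (23.1%), 5 nuclear (38.5%) and 5 neither, with a median log2 fold change of −0.24. The shares over all tested protein-coding genes were 35.6% and 28.4%. KIF20A, KIF22 and KIF2C made up the cytoplasmic group. KIF20A, a motor of the central spindle that is needed for cytokinesis, lies at chr5:138178719-138187723 on the plus strand (hg38) and has 19 exons in its main transcript. Its normalized counts were 839.7 and 1004 in the deeper and shallower nuclear libraries and 2624 and 2860 in the cytoplasmic ones. The fractions did not overlap, and the cytoplasmic mean was 2.98-fold higher (2742 against 921.6, log2 fold change 1.57 ± 0.13 SE, DESeq2 adjusted p = 3.88e-31).

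KIF22, a chromosome-arm motor that pushes chromosomes away from the poles (chr16:29790727-29805385), had 1662 and 1707 normalized counts in the nuclear libraries and 3581 and 3978 in the cytoplasmic ones. Both cytoplasmic libraries were higher, by 2.24-fold on average (3779 against 1685, log2 fold change 1.17 ± 0.12 SE, DESeq2 adjusted p = 1.07e-22). KIF2C, which takes microtubule ends apart at centromeres, gave 1589 and 1831 normalized counts in the nuclear libraries and 3645 and 3640 in the cytoplasmic ones, a log2 fold change of 1.09. These genes kept their call with equal totals.

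The mitotic kinesins on the nuclear side were KIF18A, KIF20B, KIF15, KIF18B and KIF4A. KIF18A, which dampens chromosome movements at metaphase, fell from 1479 and 1386 normalized counts in the nuclear libraries to 610.9 and 459.8 in the cytoplasmic ones (log2 fold change −1.42 ± 0.16 SE, DESeq2 adjusted p = 2.87e-18). KIF20B, a cytokinesis motor of the same family as KIF20A, went the other way from it, with 1941 and 1996 nuclear against 1123 and 813.7 cytoplasmic normalized counts (log2 fold change −1.02). KIF15, a spindle motor that can stand in for KIF11, had a log2 fold change of −0.87, KIF18B −0.64, and the chromosome-bound motor KIF4A −0.45. The call for KIF4A was lost without the shallower cytoplasmic library, where limma-voom gave a log2 fold change of −0.28 and an adjusted p of 0.048.

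KIF11, the motor that pushes spindle poles apart and the target of many antimitotic compounds, showed no such difference on the deposited scale. Its normalized counts (chr10:92574105-92655395) were 2711 and 2857 in the nuclear libraries and 2754 and 2503 in the cytoplasmic ones. The fractions overlapped (means 2784 and 2629), and the log2 fold change of −0.08 ± 0.12 SE did not pass the test (DESeq2 adjusted p = 0.563), although with equal totals it was −0.75 and was called nuclear. KIFC1, KIF23 and KIF14 also missed the threshold, with log2 fold changes of 0.19, −0.24 and −0.32, and with equal totals they were −0.47, −0.90 and −0.99 and called nuclear. KIF14 was called nuclear as well when centred on the protein-coding median (−0.44, adjusted p = 0.00969) and without the deeper cytoplasmic library (−0.54, limma-voom adjusted p = 0.00183), and without the shallower one it was −0.14. KIF4B, a single-exon gene closely related to KIF4A, had between 2 and 6 counts per library, and whether reads of KIF4A were assigned to it was not measured.

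The promoters are shown because the mitotic kinesins share a sequence that did not enter the rule. TTTGAA and its variant TTCGAA are known as the cell cycle genes homology region, through which genes are held silent until late in the cell cycle. They were searched on both strands, where TTTGAA also reads TTCAAA and TTCGAA reads the same, in RefSeq promoters of GRCh38.p14 that run from 250 bases before to 50 bases after a gene's start. This start is that of RefSeq and can differ from the GENCODE start behind the gene coordinates and spans. For KIF11, the window printed below lies inside the gene as placed by GENCODE, at chr10:92574105-92655395. A promoter was found for 34 of the 42 kinesins. The letters were present in 11 of 14 mitotic promoters, 1 of 11 transport promoters and 1 of 9 others, and in 16.6% of all 27305 promoters. Within the last 50 bases before the start or the 50 after it, they were present in 10 of 14 mitotic and 0 of 11 transport promoters, against 5.05% of all promoters. The windows below come from mitotic kinesins called cytoplasmic (KIF22), nuclear (KIF18A and KIF4A) and neither (KIF11), each read along the gene's strand with the motif in capitals.
KIF22, chr16:29790712-29790741: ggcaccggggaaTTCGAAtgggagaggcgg
KIF18A, chr11:28108149-28108178: aagtggcttgggTTTGAAtattgtggttga
KIF4A, chrX:70290058-70290087: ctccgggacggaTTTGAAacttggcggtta
KIF11, chr10:92593090-92593119: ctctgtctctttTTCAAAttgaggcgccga

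Of the mitotic kinesins called cytoplasmic, KIF22 held the letters and KIF20A and KIF2C did not, while KIF18A, KIF20B, KIF15, KIF18B and KIF4A on the nuclear side and KIF11, KIF23, KIF14, KIFC1 and KIF4B, which were not called, did. The window of KIF4B, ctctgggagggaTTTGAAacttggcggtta, resembles that of KIF4A closely although the gene itself had almost no counts. A match is only a run of letters, and binding at these windows was not measured.

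The 15 transport kinesins spread more widely, with 4 called cytoplasmic (26.7%), 7 nuclear (46.7%) and 4 neither and a median log2 fold change of −0.33. Of protein-coding genes with a mean over 50, which all 15 had, 43.6% were called cytoplasmic and 33.0% nuclear. With equal totals the split was 2 to 10, and for the mitotic class 3 to 9. Of the 12138 protein-coding genes with a mean over 50, 3385 were then called cytoplasmic and 5938 nuclear. Over all tested protein-coding genes the shares were 22.4% and 42.6%. KIF1C, which carries vesicles and RNAs to the cell periphery, had the largest cytoplasmic excess of any kinesin. It lies at chr17:4997950-5028401 and had 2166 and 2037 normalized counts in the nuclear libraries and 7916 and 8455 in the cytoplasmic ones. The fractions were far apart, by 3.89-fold (means 8185 and 2101, log2 fold change 1.96 ± 0.11 SE, DESeq2 adjusted p = 1.55e-71).

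Its relatives KIF1B and KIF1A did not follow. KIF1B, which transports mitochondria and synaptic vesicle precursors (chr1:10210570-10381603), gave 4627 and 4508 nuclear and 4460 and 4726 cytoplasmic normalized counts, so that the fractions overlapped. Its log2 fold change was 0.01 ± 0.11 SE (means 4568 and 4593, DESeq2 adjusted p = 0.956), and with equal totals it was −0.65 and called nuclear. KIF1A, known mainly from axons, was lower in count, with a log2 fold change of −0.33 that did not pass; with equal totals it was −0.99 and called nuclear, as it was without the deeper nuclear library (−0.50, limma-voom adjusted p = 0.00207). The endosome motors KIF13A and KIF13B of this family, long genes of 228 and 196 kb, were called nuclear, with log2 fold changes of −0.93 and −1.07.

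KIF16B, which moves early endosomes outward, had the largest nuclear excess of the kinesins. Its normalized counts (chr20:16272104-16573448) were 1514 and 1284 in the nuclear libraries and 274.4 and 214.7 in the cytoplasmic ones. The nuclear mean was 5.71-fold higher (1399 against 245.0, log2 fold change −2.51 ± 0.17 SE, DESeq2 adjusted p = 2.11e-47).

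The 3 heavy chains of conventional kinesin, KIF5A, KIF5B and KIF5C, split between the fractions. KIF5B, the form made in most cells, had the highest mean of the kinesins, 5962.5, and lies at chr10:32009015-32056425. It gave 3946 and 4671 normalized counts in the nuclear libraries and 8773 and 6460 in the cytoplasmic ones. Both cytoplasmic libraries were higher although they differed from each other (means 7617 and 4308, log2 fold change 0.82 ± 0.15 SE, DESeq2 adjusted p = 5.25e-08), and with equal totals the value was 0.16 and was not called (adjusted p = 0.348).

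KIF5C, a heavy chain known mainly from neurons (chr2:148875227-149026759), was nuclear, with 2899 and 2687 normalized counts in the nuclear libraries and 996.6 and 1027 in the cytoplasmic ones. The nuclear mean was 2.76-fold higher (2793 against 1012, log2 fold change −1.47 ± 0.12 SE, DESeq2 adjusted p = 4.64e-32). KIF5A, the other neuronal form, was low, with 248.3 and 252.3 nuclear and 155.9 and 147.1 cytoplasmic normalized counts (log2 fold change −0.72).

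The motor subunits of heterotrimeric kinesin, which drives transport within cilia, also differed. KIF3B was cytoplasmic, with 764.4 and 777.0 nuclear and 1588 and 1627 cytoplasmic normalized counts (log2 fold change 1.06 ± 0.13 SE, DESeq2 adjusted p = 1.22e-15). Its partner KIF3A was nuclear, with 1040 and 939.3 nuclear and 741.0 and 512.9 cytoplasmic normalized counts (log2 fold change −0.66 ± 0.18 SE, DESeq2 adjusted p = 5.04e-04). In GENCODE 44, other genes cover 87.1% of the KIF3A exons, 99.7% of the KIF2A exons, 56.2% of those of KIF27 and 47.9% of those of KIF2C. Stretches shared by genes were removed before counting, in another annotation than GENCODE 44, so how much of each gene was counted was not examined. Without the shallower cytoplasmic library the KIF3A value was −0.42 and the call was lost (limma-voom adjusted p = 0.0133).

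KIF3C, which can replace KIF3B as the partner of KIF3A, had a log2 fold change of 0.66 and was called cytoplasmic on the deposited scale, whereas with equal totals it was 0.00. KIF17, another ciliary motor, had overlapping libraries and a log2 fold change of −0.06, which with equal totals was −0.72 and called nuclear. KIFAP3, the non-motor subunit that joins KIF3A and KIF3B, was nuclear at −1.05.

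KIFC2 and KIFC3 are minus-end motors. KIFC2 had 350.5 and 430.5 normalized counts in the nuclear libraries and 165.3 and 140.5 in the cytoplasmic ones, with no overlap and a log2 fold change of −1.35 ± 0.23 SE (DESeq2 adjusted p = 6.89e-09). KIFC3 had a log2 fold change of 0.41 that did not pass, and with equal totals it was −0.25 and did not pass either.

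**Figure D2:**
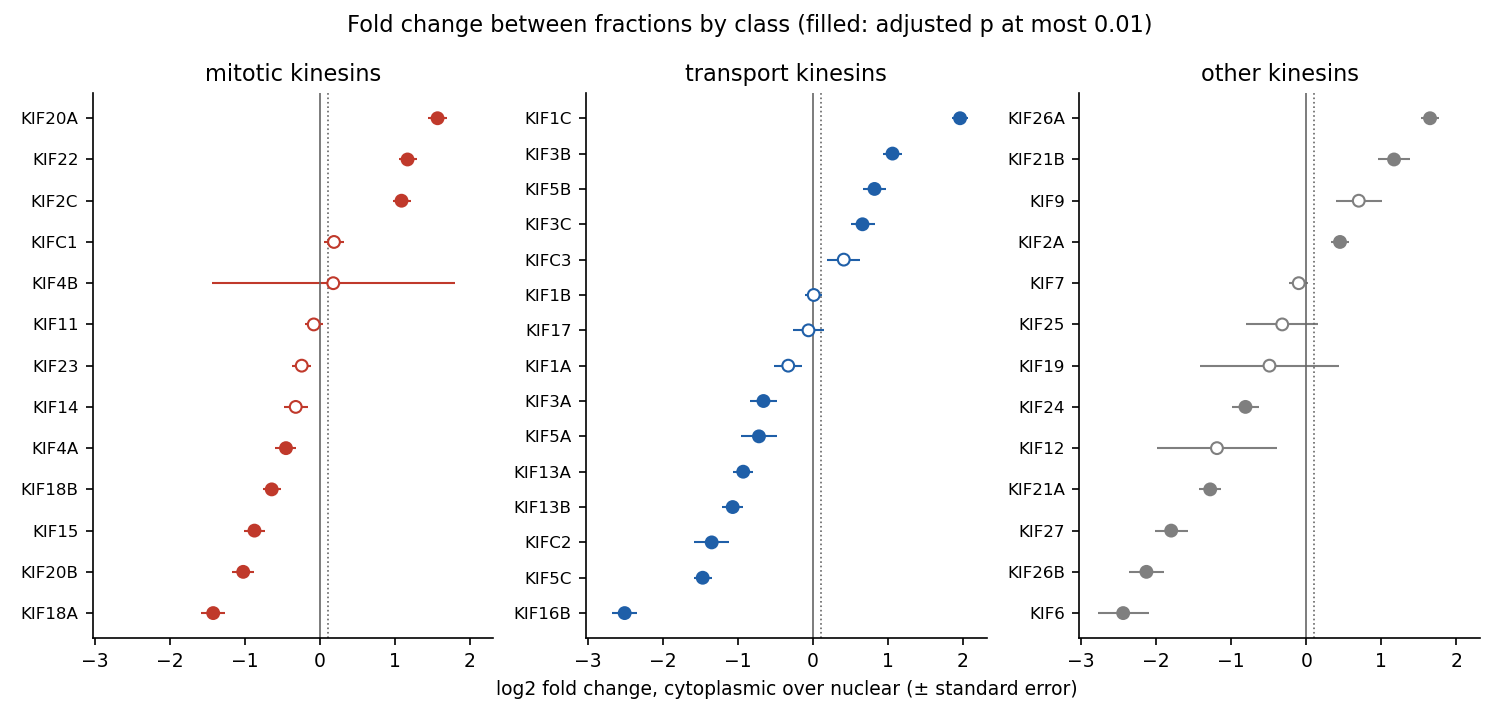
Log2 fold change of cytoplasmic over nuclear normalized counts (x axis) with its standard error for each tested kinesin, by class. Filled points have a DESeq2 adjusted p of at most 0.01, the solid line is 0 and the dotted line the protein-coding median of 0.11. Each class reaches both sides of 0, from −1.42 to 1.57 for mitotic, −2.51 to 1.96 for transport and −2.44 to 1.65 for other kinesins.

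The other 13 kinesins held 3 cytoplasmic (23.1%) and 5 nuclear (38.5%) calls, with a median log2 fold change of −0.49. Of all tested protein-coding genes, 35.6% and 28.4% were called. With equal totals, 1 of the 13 was called cytoplasmic and 6 nuclear, beside 22.4% and 42.6% of all tested protein-coding genes. KIF26A, an atypical kinesin without ATPase activity that acts in signalling, lies at chr14:104136454-104180894. It had 1125 and 1021 normalized counts in the nuclear libraries and 3228 and 3485 in the cytoplasmic ones. The fractions did not overlap, with a 3.13-fold higher cytoplasmic mean (3356 against 1073, log2 fold change 1.65 ± 0.12 SE, DESeq2 adjusted p = 1.50e-40).

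Its paralog KIF26B (chr1:245154985-245709432) was among the most nuclear kinesins. It gave 545.9 and 459.1 normalized counts in the nuclear libraries and 129.0 and 99.39 in the cytoplasmic ones, a 4.39-fold difference (means 502.3 and 114.4, log2 fold change −2.13 ± 0.23 SE, DESeq2 adjusted p = 1.74e-20). Both paralogs, of 44.4 kb (KIF26A) and 554 kb (KIF26B) in span, were thus called in opposite directions.

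KIF21A and KIF21B, which steady growing microtubule ends, were a second such pair. KIF21B (chr1:200969390-201023714) had 161.8 and 202.7 nuclear and 385.8 and 432.0 cytoplasmic normalized counts. Its cytoplasmic mean was 2.25-fold higher (409.0 against 182.1, log2 fold change 1.17 ± 0.21 SE, DESeq2 adjusted p = 1.15e-07), and with equal totals the value was 0.50 and no longer called (adjusted p = 0.0297). KIF21A had 2393 and 2285 nuclear and 1112 and 813.7 cytoplasmic normalized counts, a log2 fold change of −1.28.

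KIF6, a motor of motile cilia (chr6:39329990-39725408), was low, with 191.7 and 182.5 normalized counts in the nuclear libraries and 29.31 and 39.76 in the cytoplasmic ones. Its nuclear mean was 5.44-fold higher (187.2 against 34.40, log2 fold change −2.44 ± 0.34 SE, DESeq2 adjusted p = 4.41e-12). KIF27, a relative of the hedgehog pathway kinesin KIF7, had 447.4 and 490.2 nuclear and 146.6 and 121.9 cytoplasmic normalized counts at chr9:83834099-83921465 (means 468.6 and 134.5, log2 fold change −1.80 ± 0.22 SE, DESeq2 adjusted p = 2.61e-16). KIF7 itself was narrowly lower in the cytoplasmic libraries, with 1457 and 1451 nuclear and 1401 and 1311 cytoplasmic normalized counts, and its log2 fold change of −0.10 did not pass, whereas with equal totals it was −0.76 and called nuclear.

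KIF2A, which takes microtubule ends apart at spindle poles and in neurites, had a log2 fold change of 0.45 and was called cytoplasmic, whereas with equal totals it was −0.22 and not called. Its call was also lost without the deeper cytoplasmic library (limma-voom adjusted p = 0.0135). KIF24, a ciliary relative, was nuclear at −0.81. KIF9 had 81.29 and 74.00 nuclear and 132.5 and 120.6 cytoplasmic normalized counts; its log2 fold change of 0.70 ± 0.31 SE missed the DESeq2 threshold (adjusted p = 0.0428) and passed by limma-voom (adjusted p = 0.00233). With equal totals it was 0.04. KIF12, KIF19 and KIF25 had means of 15.5, 10.48 and 40.48 and log2 fold changes of −1.19, −0.49 and −0.32, which did not pass. The size of difference that could be detected at this depth was not estimated.

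The class medians of mitotic and transport kinesins differed by 0.09, and this difference had an SD of 0.09 over the 4 pairings of a nuclear with a cytoplasmic library, which share libraries. The difference is a description of these genes, which are not replicates. The sign of this small difference turned when the shallower nuclear library was left out (−0.04), and also when gene span was taken into account. Each kinesin was set against the 200 protein-coding genes nearest to it in span with a mean over 50. Over all 41 tested kinesins the median difference from such genes was −0.07, with 19 above and 22 below. Over the 37 kinesins with a mean over 50 it was 0.02. Mitotic kinesins then had a median difference of −0.20, with 4 of 13 above genes of like span, and transport kinesins one of 0.33, with 10 of 15 above. Without KIF4B, which had almost no counts, the mitotic median was −0.15 over 12 genes.

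Intronic and exonic reads were counted together and are not separated in the table. Across the 37 kinesins with a mean over 50, Spearman's rho between span and log2 fold change was −0.60, and across all protein-coding genes with such a mean it was −0.71 over 12134 genes. Among mitotic kinesins it was −0.73 over 12 genes and among transport kinesins −0.39 over 15. These points share the same 4 libraries. Exonic length alone gave −0.24 over the 37 kinesins. The short genes KIF20A (9.01 kb) and KIF22 (14.7 kb) sat within 0.1 of genes of like span, as the long gene KIF6 (395 kb) nearly did, with a difference of −0.16. KIF26B (554 kb), KIF13A (228 kb) and KIF13B (196 kb), all called nuclear, had differences of 0.48, 0.52 and 0.27. For KIF16B (301 kb) it was −0.55.

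Several kinesins lay far from genes of their span. KIF26A was 1.63 above them and KIF1C 1.57 above, and KIF3B, KIF21B and KIFC3 were 1.25, 1.23 and 1.06 above. KIF1B, at 171 kb, was 1.00 above, so that its even distribution on the deposited scale stood beside a median of −0.99 for like genes. On the other side, KIFC2 was the most distant of the well-counted kinesins. Its span of 8.16 kb went with a median of 1.46, and its own value differed from that by −2.81, at percentile 5.5 of the 200 genes. KIF27, KIF18B, KIF5A and KIF18A differed by −1.41, −1.31, −1.10 and −1.04.

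**Figure D3:**
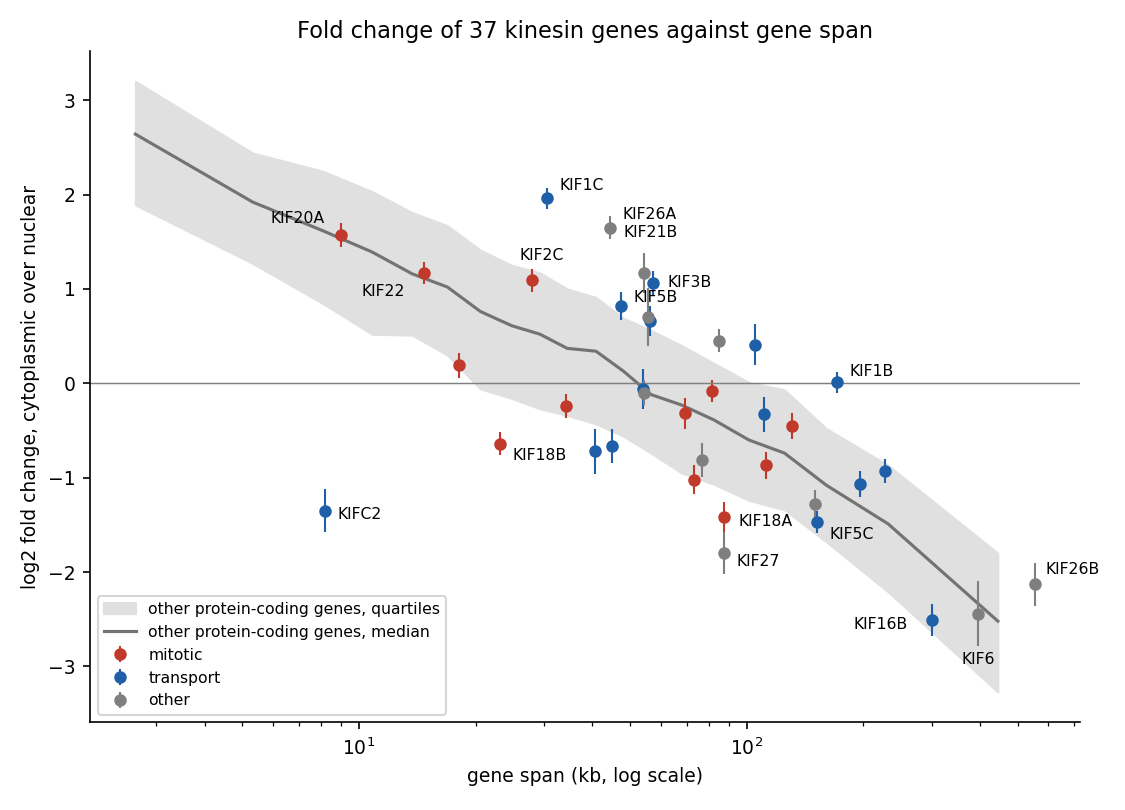
Log2 fold change (y axis, with standard error) against gene span (x axis, kb, log scale) for the 37 kinesins with a mean over 50, coloured by class. The grey line and band are the median and quartiles of other protein-coding genes in 20 bins of span. KIF1C, KIF26A, KIF3B, KIF21B and KIF1B are among the kinesins above the band, and KIFC2, KIF18B and KIF27 are among those below it.

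The deeper and shallower libraries of the cytoplasmic fraction differed for several kinesins. The deeper one gave the higher normalized count for 25 of 41 kinesins and for 10 of 13 mitotic ones, compared with 39.9% of protein-coding genes with a mean over 50. The log2 ratio of deeper to shallower was 0.53 for KIF3A, 0.46 for KIF20B, 0.45 for KIF21A, 0.44 for KIF5B and 0.41 for KIF18A, while over protein-coding genes it had a median of −0.04 and an SD of 0.23. KIF24 and KIF6 went the other way, at −0.49 and −0.43. Across the 37 kinesins the ratio had a Spearman's rho of −0.58 with the G+C content of the longest coding transcript, from 34.3% in KIF20B to 68.6% in KIF26A. It was −0.12 over 11909 other protein-coding genes, and for the nuclear libraries the kinesins gave −0.02. The part of this difference in the fraction results was not tested, and the values without each library are given with the processing.

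**Figure D4:**
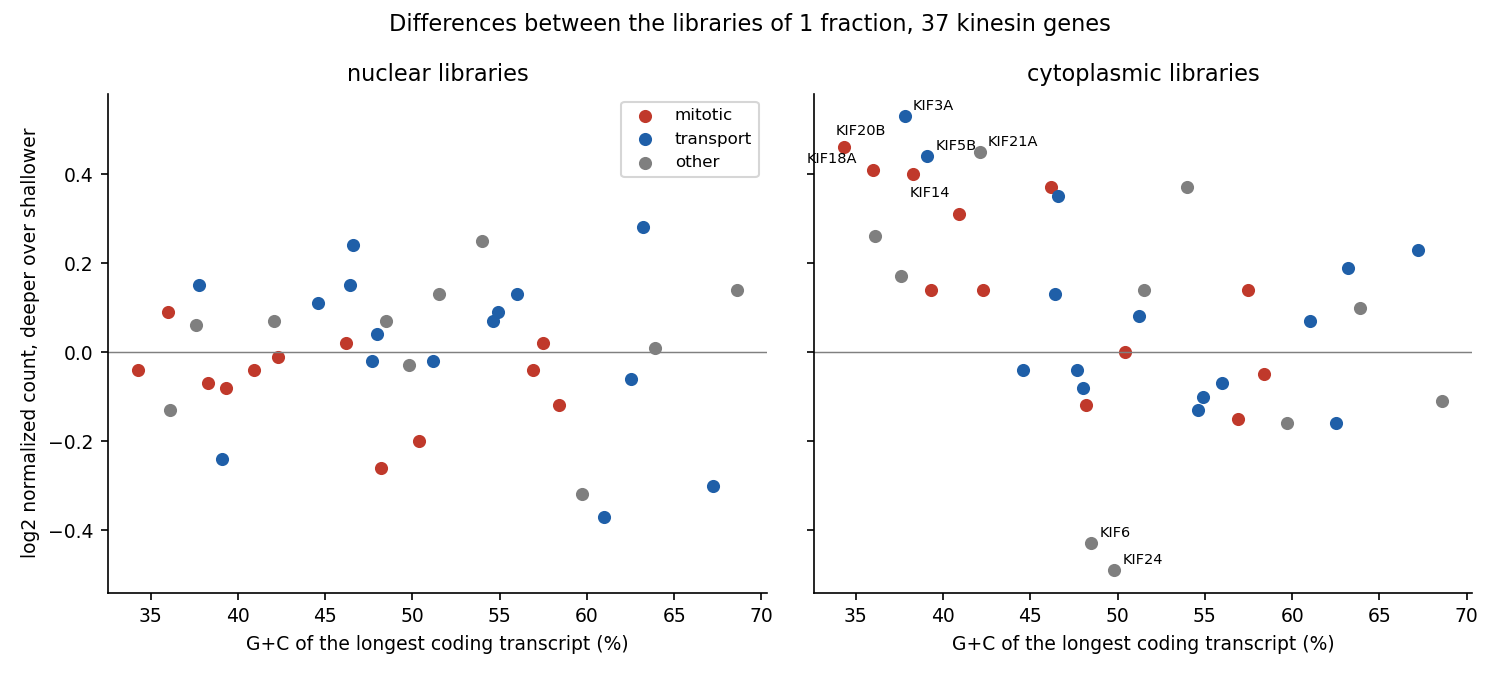
Log2 ratio of normalized counts in the deeper over the shallower library (y axis) against G+C content (x axis, %) for 37 kinesins, in the nuclear (left) and cytoplasmic (right) fraction. In the cytoplasmic panel KIF3A, KIF20B, KIF5B and KIF18A lie above 0.4 with G+C contents under 40%, and in the nuclear panel the same genes lie between −0.24 and 0.15.

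Partner genes were followed to see whether kinesins resembled the proteins they work with. Of 30 genes for spindle and cytokinesis proteins, 15 were called cytoplasmic and 8 nuclear, with a median log2 fold change of 0.32. All 30 had a mean over 50. Of protein-coding genes with such a mean, 43.6% were called cytoplasmic and 33.0% nuclear, with a median of 0.22. With equal totals the split was 9 to 15, where 3385 and 5938 of the 12138 protein-coding genes with such a mean were called. The highest values belonged to BIRC5 (2.59), CDC20 (2.33) and MAD2L1 (1.79), which act in the chromosomal passenger complex and the spindle checkpoint, and the lowest to ANLN (−1.72), ASPM (−1.68) and the kinesin CENPE (−1.55). CENPE is a kinesin by descent whose symbol the rule did not match. BIRC5 had 1123 and 1368 nuclear and 7415 and 7615 cytoplasmic normalized counts, an excess above that of each kinesin. The partners of KIF20A and KIF23 in the central spindle were PRC1, at 0.67, and RACGAP1, at 0.48, which with equal totals were 0.01 and −0.19 and not called.

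Of 34 genes for cargo adaptors, kinesin light chains, dynein and dynactin subunits, 16 were called cytoplasmic (47.1%) and 11 nuclear (32.4%), with a median of 0.19. All 34 had a mean over 50, so the same 43.6% and 33.0%, with a median of 0.22, stand beside them. With equal totals 11 and 18 were called, beside 3385 and 5938 of the 12138 protein-coding genes. DCTN3 (2.33), DYNLT1 (2.33) and MAPK8IP1 (2.30) were highest, and BICD1, DYNC1I1 (−2.72) and MAPK8IP3 (−2.20) were lowest, with BICD1 8.02-fold higher in the nuclear fraction. MAPK8IP1 and MAPK8IP3 both encode scaffolds that link conventional kinesin to cargo, and they were called in opposite directions. The light chains of conventional kinesin also lay on both sides, with KLC1 at −0.93 and KLC3 at −0.61 nuclear and KLC2 at 0.80 and KLC4 at 0.46 cytoplasmic. With equal totals KLC2 was 0.13 and KLC4 −0.20, and neither was called. KIFBP, which binds several kinesins and blocks their motor domains, had a log2 fold change of 0.63, which with equal totals was −0.03 and not called.

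**Figure D5:**
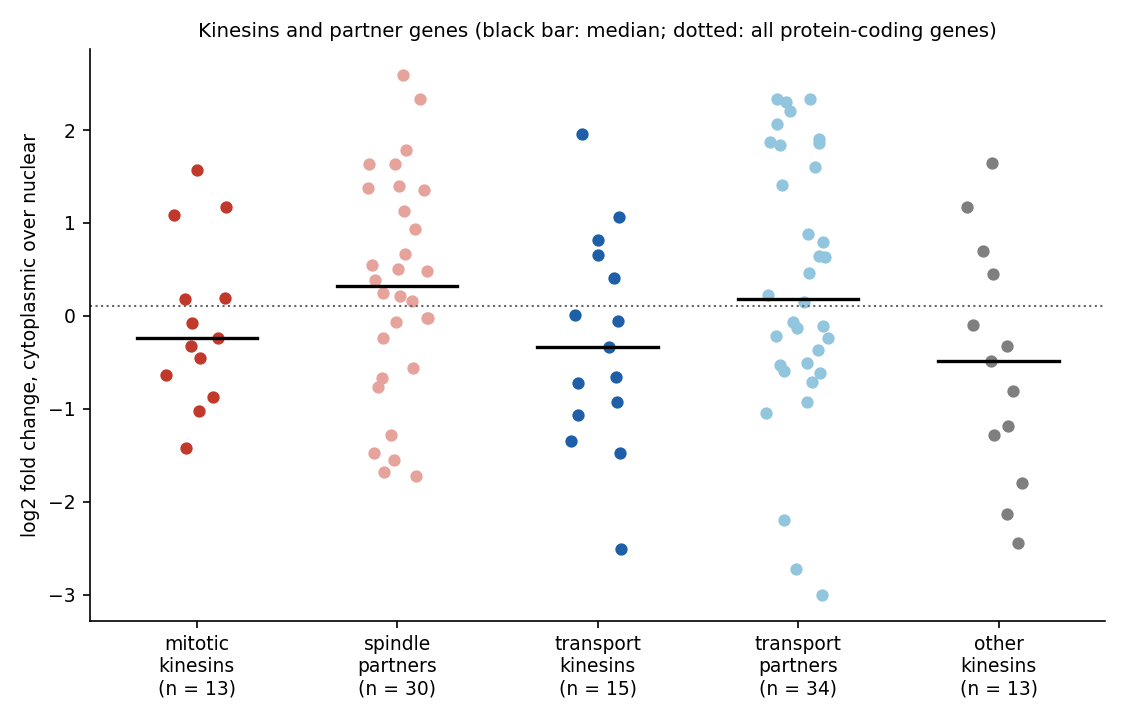
Log2 fold change (y axis) of each tested gene of the 3 kinesin classes and of both partner lists (x axis), with the median of each as a black bar and the protein-coding median of 0.11 as a dotted line. The medians are −0.24, −0.33 and −0.49 for mitotic, transport and other kinesins, 0.32 for spindle partners and 0.19 for transport partners.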

How the data were processed

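RNA of 2 nuclear and 2 cytoplasmic fractions of HEK293T cells was sequenced as paired 100 nt reads with a stranded kit. Per the labels and the methods, the authors aligned to hg38 with STAR and counted with featureCounts 2.0.2 over exons and introns of a GENCODE annotation extended with NCBI genes, with shared stretches and readthrough transcripts removed; the strand setting is not given in the sources used here. The authors deposited 1 table from DESeq2: the mean normalized count (a signal over all libraries), log2 fold change and standard error, Wald score, p-value and adjusted p-value. These columns served as the fraction test.

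Counts were recovered by finding the whole numbers that reproduce mean, fold change and standard error together (23132 of 23333 tested genes) and fitted with limma-voom (limma 3.58.1, R 4.3.3); both steps were tested on simulated data. The 2 libraries of a fraction differed beyond sampling noise (chi-square per degree of freedom 6.90 and 6.92). Spans and G+C content came from GENCODE 44. Full values are given for KIF5B, KIF11, the 5 highest and 5 lowest log2 fold changes with a mean over 50 and the 3 largest means. The 3 highest and lowest of each partner list are named with their fold change, and other partner genes were named after their values were seen. The kinesins, classes and lists were chosen with earlier results of these data known. Alternatives were the threshold, adjustment, scaling, filters, class assignment and leaving out each library.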

Additional observations from a re-analysis of the deposited data

Results flagged for a closer look

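KIF9-AS1 (chr3:47164186-47246601) is a lncRNA gene that overlaps part of KIF9 (chr3:47227998-47283451) in the opposite direction and lies outside the rule for kinesins. The mean normalized count of KIF9-AS1 was 962.1. It gave 1705 and 1678 normalized counts in the nuclear libraries and 248.6 and 217.3 in the cytoplasmic ones (log2 fold change −2.86, DESeq2 adjusted p = 4.76e-76), whereas KIF9 had 102.1 and a log2 fold change of 0.70. Whether reads were assigned by strand is not stated, and the part of the antisense RNA in the value of KIF9 was not tested.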

How the results depend on the processing

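The 10 cytoplasmic and 17 nuclear kinesin calls stayed within 1.5 times of these counts at a threshold of 0.05, centred on the protein-coding median and at a mean over 50. The same held by limma-voom, with or without a minimum count. Bonferroni adjustment gave 8 and 13 calls, and a mean over 50 with an absolute log2 fold change over 0.5 gave 9 and 16. The Bonferroni and fold settings do not enter the count of kept calls below. Leaving out each library by limma-voom gave 9 to 11 cytoplasmic and 15 to 18 nuclear calls. Equal totals gave 6 cytoplasmic calls; the partner lists then held 9 cytoplasmic spindle genes and 15 nuclear ones, and 18 nuclear transport genes. Of the 27 called kinesins, 21 kept call and direction under equal totals, centring, limma-voom and each left-out library. Equal totals moved the class medians to −0.90 (mitotic) and −0.99 (transport) and turned the sign of KIF2A (−0.22), KIFC3 (−0.25), KIFC1 (−0.47), KIF4B (−0.48) and KIF1B (−0.65), by construction. Centring turned KIF1B (−0.10). A mean weighted by the inverse squared standard error gave 0.02 for mitotic and −0.09 for transport kinesins. The difference of class medians was −0.54 relative to genes of like span, and −0.04 to 0.16 when each library was left out. Left-out libraries gave −0.36 to −0.14 for the mitotic median, −0.50 to −0.19 for the transport median, −0.03 to 0.05 for KIF1B and −0.19 to 0.09 for KIF17. The rank correlation with span was −0.50 over all 41 kinesins, −0.60 at a mean over 50, −0.19 with exonic length and −0.53 to −0.47 with a library left out. The cause was not tested. No paired analysis was possible because the table does not tie a count to a replicate number, and edgeR was not run, since limma-voom was fitted to the recovered counts in its place, a choice made after seeing the data, as were the use of limma-voom for the left-out libraries, which had been planned, and the partner alternatives. Depth limits KIF4B, KIF12, KIF19 and KIF25.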
